A study of Mus musculus with 24 samples.

Results

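The genes described here are 40 genes of the cell division cycle, taken by symbol from a table of 29020 genes. The table holds total RNA sequencing of the mesenteric arteries of mice, small arteries of the gut's blood supply. All 40 had a row in the table, which names genes by Ensembl identifier (ENSMUSG00000031004 for Mki67, ENSMUSG00000027342 for Pcna, ENSMUSG00000037725 for Ckap2). They were listed by name, but with earlier results of these data known. The list holds 5 genes of DNA replication, 3 enzymes of nucleotide supply, 9 cyclins, kinases and a transcription factor and 7 genes of the kinetochore and its checkpoint. It also holds 9 spindle motors and microtubule-binding proteins, 3 genes of cytokinesis, 2 genes of the anaphase-promoting complex and 2 chromatin proteins. The study had 24 male mice in 4 groups of 6, and each library came from 1 mouse, named here by its animal ID. The ieCre mice, the controls, carry a tamoxifen-inducible Cre recombinase driven by the endothelium-specific Tie2 promoter. The ieET-1 mice in addition overexpress human endothelin-1, a strong vasoconstrictor peptide, in the endothelium once Cre is induced. All 4 groups, controls included, carry the Cre and received tamoxifen (1 mg/kg per day under the skin for 5 days) from an age of 10 to 12 weeks. One group of each genotype was killed 16 days later (short term) and one 3 months later (long term), so the long-term mice were also older, and time after tamoxifen and age cannot be told apart. The RNA is of the whole dissected artery, while the transgene acts in the cells that line it.

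A dividing cell copies its DNA in S phase and parts the copies in mitosis. The helicase genes Mcm2, Mcm3, Mcm5 and Mcm6, the sliding clamp Pcna and the nucleotide enzymes Rrm2, Tyms and Tk1 serve S phase, and many of these are driven by E2F factors from late G1 on. Genes of mitosis peak later, in G2 and M, and many of them carry a cell cycle homology region beside CCAAT boxes in their promoters. In resting cells the DREAM complex holds such promoters shut through that region, and in dividing cells MYB-MuvB and Foxm1 act through it. Adult artery walls are known to hold few dividing cells. In a bulk sample, fewer dividing cells and less of each RNA per cell cannot be told apart.

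The libraries held 9635250 to 16181605 reads, with a median of 13017255. All 8 endothelial and all 8 smooth muscle markers looked up had reads in every library. Values are reads divided by an effective size of the library and are called normalized values. They are not corrected for gene length, so levels of different genes are not compared. Over the 24 libraries the members drew from 186 reads (Plk1) to 14126 reads (Pcna), and each member had at least 1 read in every library. A normalized value of 0.177 to 0.461, depending on the library, stands for 3 reads, which covers counting error only. Gm42418, which overlaps ribosomal RNA, took over 10% of the reads in 4 libraries (mice 9955, 9491, 8135 and 8136), and 1 read was worth most in these. In the library of mouse 9489 24399 genes had reads, against 18765 to 20744 in the others. Mouse 8135 had high summed values of the intestinal epithelium markers, at 446 against at most 18.1 in the other mice.

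The promoters printed here are those of the members that passed a test within 1 genotype and had an entry in the RefSeq promoter table, together with Mcm6, a replication gene that did not pass, chosen after its values were seen as a contrast. Each window runs 5′ to 3′ on the strand of the gene, from 250 bases before the start to 50 bases after it, in build GRCm38.p6. Capitals mark matches, on either strand, to 3 motifs. These are the core of the cell cycle homology region (TTTGAA or TTCGAA), the CCAAT box bound by NF-Y (CCAAT, or ATTGG on the other strand) and the core of an E2F site (searched as TTCCCGC, also as TTGGCGC, further as TTCGCGC and last as TTGCCGC). E2F matches on opposite strands can overlap, as they do in Mcm6, and a TTCGAA match reads the same on both strands and was counted once. The windows lie at chr8:22185770-22186069 (minus strand) for Ckap2, chr1:189688037-189688336 (minus strand) for Cenpf, chr7:80294201-80294500 (plus strand) for Prc1, chr9:61946750-61947049 (minus strand) for Kif23, chr11:40733388-40733687 (minus strand) for Hmmr and chr1:128359656-128359955 (minus strand) for Mcm6. Pbk passed as well and is named only.
Ckap2: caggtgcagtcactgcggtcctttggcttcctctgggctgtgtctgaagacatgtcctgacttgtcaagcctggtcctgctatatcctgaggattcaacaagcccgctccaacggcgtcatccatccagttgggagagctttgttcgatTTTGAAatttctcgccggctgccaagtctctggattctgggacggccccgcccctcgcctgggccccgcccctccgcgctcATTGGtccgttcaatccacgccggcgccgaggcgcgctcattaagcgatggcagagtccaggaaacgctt
Cenpf: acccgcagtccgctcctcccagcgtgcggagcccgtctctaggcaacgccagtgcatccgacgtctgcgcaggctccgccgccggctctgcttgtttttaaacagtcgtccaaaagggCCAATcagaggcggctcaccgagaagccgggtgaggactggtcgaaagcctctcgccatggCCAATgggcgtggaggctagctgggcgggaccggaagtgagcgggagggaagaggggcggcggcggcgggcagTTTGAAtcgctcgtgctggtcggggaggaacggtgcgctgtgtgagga
Prc1: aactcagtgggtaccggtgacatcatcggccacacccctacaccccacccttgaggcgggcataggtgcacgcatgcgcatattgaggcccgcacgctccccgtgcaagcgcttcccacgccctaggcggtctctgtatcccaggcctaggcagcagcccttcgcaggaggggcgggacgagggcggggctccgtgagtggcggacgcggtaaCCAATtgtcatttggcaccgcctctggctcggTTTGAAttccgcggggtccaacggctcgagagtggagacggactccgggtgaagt
Kif23: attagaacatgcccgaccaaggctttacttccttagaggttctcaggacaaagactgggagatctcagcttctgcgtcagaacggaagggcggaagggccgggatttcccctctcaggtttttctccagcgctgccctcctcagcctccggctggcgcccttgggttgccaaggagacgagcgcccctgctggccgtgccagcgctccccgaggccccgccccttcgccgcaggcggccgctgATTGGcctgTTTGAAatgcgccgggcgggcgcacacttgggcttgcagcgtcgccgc
Hmmr: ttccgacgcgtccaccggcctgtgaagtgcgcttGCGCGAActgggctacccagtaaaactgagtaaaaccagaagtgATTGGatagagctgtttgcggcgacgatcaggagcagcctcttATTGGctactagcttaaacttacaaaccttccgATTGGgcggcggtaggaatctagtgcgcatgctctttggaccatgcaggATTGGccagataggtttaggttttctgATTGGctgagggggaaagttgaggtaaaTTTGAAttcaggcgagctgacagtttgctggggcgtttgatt
Mcm6: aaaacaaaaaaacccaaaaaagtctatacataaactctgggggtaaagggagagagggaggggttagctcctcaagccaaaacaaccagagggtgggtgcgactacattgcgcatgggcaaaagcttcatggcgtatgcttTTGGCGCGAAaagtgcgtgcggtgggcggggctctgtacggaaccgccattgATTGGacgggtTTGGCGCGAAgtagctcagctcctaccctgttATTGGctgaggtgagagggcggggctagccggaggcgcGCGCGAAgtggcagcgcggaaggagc

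All 5 windows of the mitotic genes held 1 TTTGAA and at least 1 CCAAT box. In Cenpf and Kif23 the TTTGAA began at position +3, counted from 1 at the start, in Hmmr at +9, in Prc1 at -5 and in Ckap2 at -101. Hmmr carried 5 CCAAT boxes. The Mcm6 window held no TTTGAA or TTCGAA but 5 matches to the E2F core, the first at -109. Over the whole set, 34 of the 40 members had a window, and Ccna2, Pbk, Aurkb, Foxm1, Kif20a and Tpx2 are named only. The homology region core was found in 21 of the 26 other members with a window (80.8%), in 1 of the 8 replication and nucleotide members (12.5%, Mcm2) and in 19.4% of the 27025 promoters of all genes. CCAAT boxes were found in 22 of 26 (84.6%), in 6 of 8 and in 37.9% of all promoters. The E2F core was found in 5 of 26 (19.2%) and 4 of 8 against 9.69% of all promoters. Homology region core and CCAAT box stood together in 20 of 26 (76.9%) against 7.70% of all promoters. These counts describe letters in a window and do not show that a factor binds there.

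**Figure D1:**
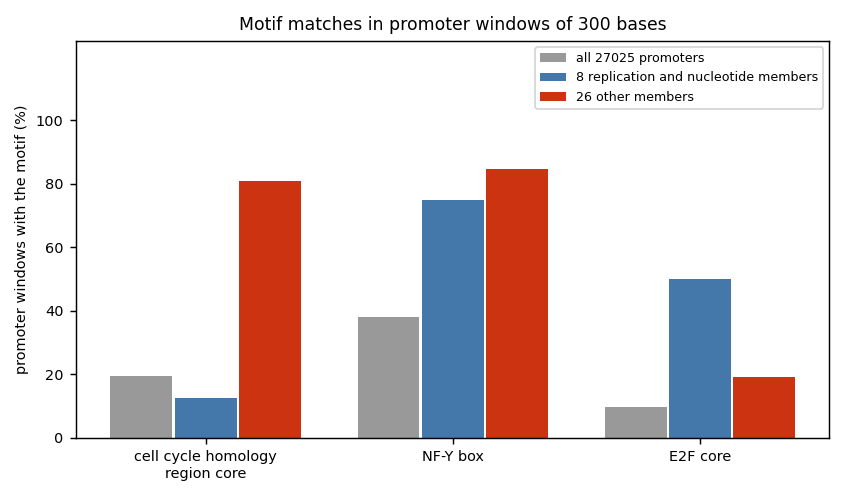
Share of promoter windows of 300 bases with a match to each motif, in percent, for all 27025 promoters (grey), the 8 replication and nucleotide members (blue) and the 26 other members with a window (red). The homology region core is in 80.8% of the other members and 12.5% of the replication and nucleotide members.

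Between short and long term, averaged over both genotypes, 22 of the 31 tested members outside replication and nucleotide supply fell, and of the 8 replication and nucleotide members none fell and 1 rose. Together these are 22 of 39 tested members that fell (56.4%), while 6.91% of the 14544 genes tested fell and 9.81% rose. As the members were chosen with earlier results of these data known, the difference between these shares is a description only. On the log2(value + 1) scale of the test those that fell by most were Ckap2 (-1.36), Cenpf (-1.34), Pbk (-1.25) and Prc1 (-1.22), each with an SE of 0.25 to 0.29. By the ratio of short-term to long-term means the order was Pbk (3.27), Ckap2 (3.14), Cenpf (2.92), Hmmr (2.61) and Prc1 (2.44). The gene that rose was Pcna. The median log2 difference was 0.04 over the 8 replication and nucleotide members, -0.72 over the 31 other members tested and 0.01 over all genes tested. The test was limma on log2(value + 1) with Benjamini-Hochberg adjustment over all genes tested, at a threshold of 0.05, and that scale understates changes at low values. Mice are the replicates, so each p-value sets a difference between groups against the spread between mice within groups. This comparison, the mean of the changes in both genotypes, was added after the comparisons within each genotype had been seen.

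Genes had to reach a value of 1 in 6 or more libraries to be tested, which left out Plk1. For 8 of the 39 members fewer than 6 long-term libraries reached 1, so that these members entered the test through their short-term values, and 3 of them (Hmmr, Pbk and Ube2c) are among those that fell. Of the other 31, 19 fell. When genes were instead kept by their mean over all libraries, all 40 members were tested and 21 fell, against 5.8% of 17303 genes. The number that fell was 15 with edgeR and 22 with DESeq2 on the recovered reads, against 7% and 9.2% of all genes. Leaving out 1 mouse at a time gave 15 to 30 members called in either direction, and the lowest count came without mouse 10 or mouse 9958. Without the 4 libraries rich in Gm42418, 9 fell. In either direction 10 members then passed, in place of 23, while 1902 of the 14544 genes tested passed, in place of 2432.

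**Figure D2:**
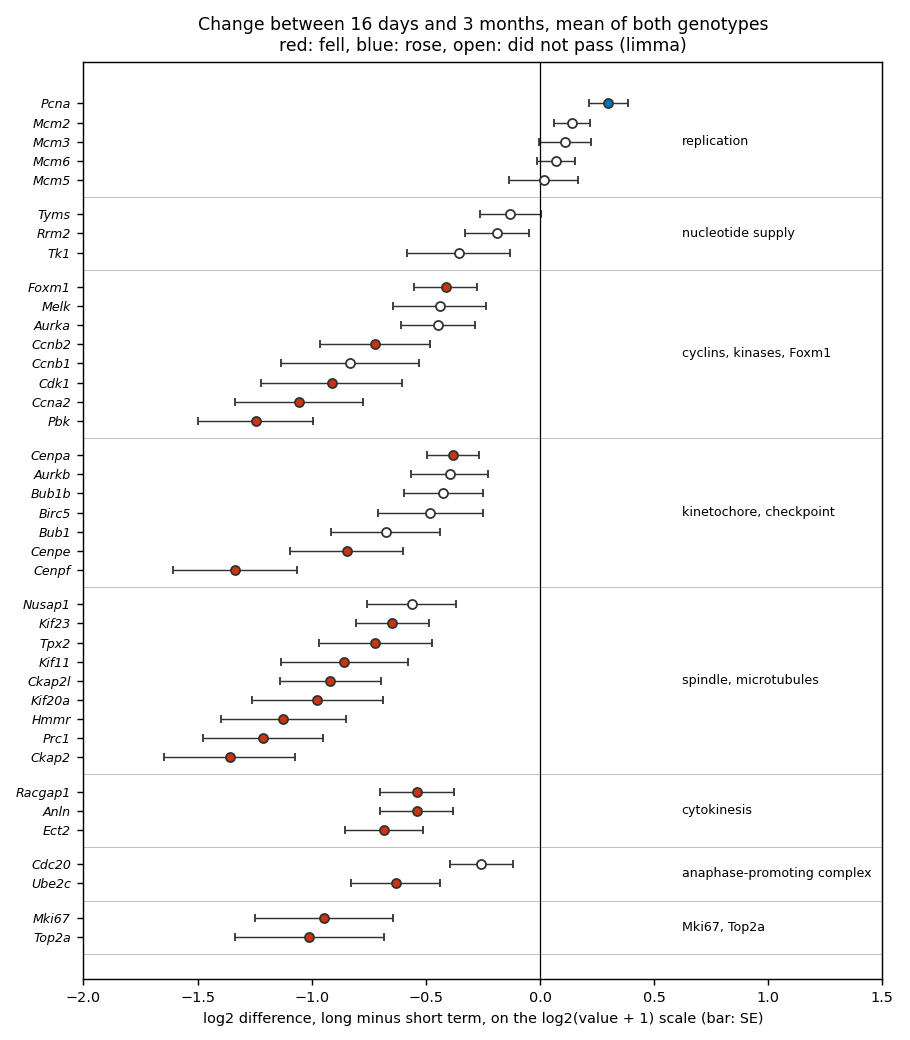
Log2 difference, long minus short term, averaged over both genotypes, for each of the 39 members tested, with its SE as a bar and grouped by role. Filled red points fell, the filled blue point (Pcna) rose and open points did not pass, and 22 members from Ckap2 (-1.36) to Cenpa (-0.38) are red.

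Mki67, the proliferation marker that coats mitotic chromosomes, had normalized values of 14.9 to 96.9 (median 42.1) in ieCre and 25.5 to 44.3 (median 34.5) in ieET-1 mice at short term, and 12.1 to 65.7 (median 18) and 7.51 to 45.5 (median 14.2) at long term. Top2a, the topoisomerase that untangles chromosomes, had 12.8 to 81.7 (median 35.8) in ieCre and 23.8 to 38.4 (median 29) in ieET-1 mice at short term, and 7.93 to 67.3 (median 12.8) and 6.13 to 44.9 (median 11.8) at long term. The ranges of the 2 times overlapped. The long-term mice 9487 and 9489 stood among the short-term mice, and the short-term mouse 8754 stood among the long-term ones. These were not the only mice to overlap. The next highest long-term ieCre value was 31.3 for Mki67 and 25.5 for Top2a, also above the lowest short-term ieET-1 value. Over both genotypes Mki67 fell from 40.5 ± 22.6 (SD, n = 12) at short term to 22.1 ± 17.3 at long term, a log2 difference of -0.94, SE 0.30, adjusted p = 0.0342. Top2a fell from 35 ± 18.9 (SD, n = 12) at short term to 19.6 ± 18.4 at long term (-1.01, SE 0.33, adjusted p = 0.0356). In the same way, parentheses after a gene hold its log2 difference, the SE of that difference and its adjusted p by limma. Both lost the call when some of the mice were left out, and Mki67 kept it in 15 and Top2a in 12 of the 24 fits without 1 mouse. By limma neither passed within ieCre mice (adjusted p = 0.337 and 0.321) or within ieET-1 mice (0.109 and 0.123).

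**Figure D3:**
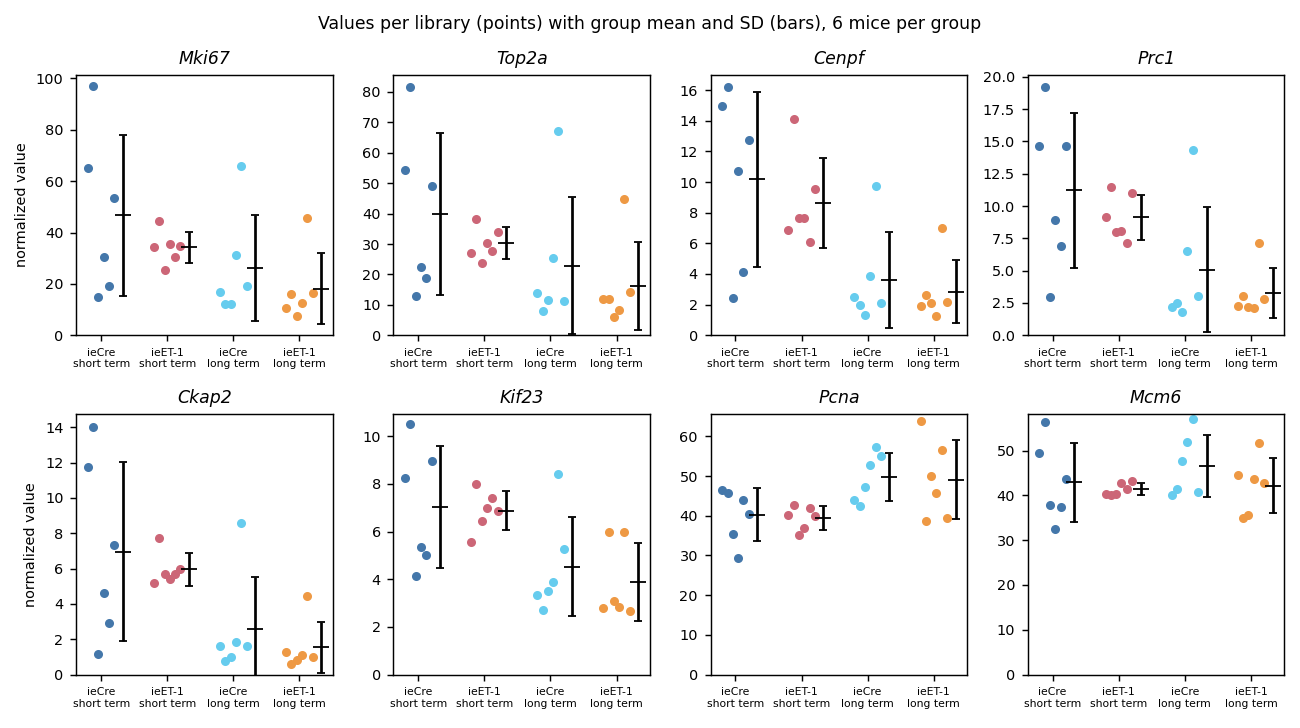
Normalized values of 8 members in each of the 24 libraries (points) with the mean and SD of each group of 6 mice (bars); every axis starts at 0. Mki67 reaches 96.9 in a short-term ieCre mouse and 65.7 in a long-term one, while Mcm6 stays between 32.5 and 57.0 in all libraries.

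None of the 5 replication genes fell. Mcm6, a subunit of the helicase that opens DNA for copying, had 32.5 to 56.4 (median 40.7) in ieCre and 40.04 to 43.3 (median 40.9) in ieET-1 mice at short term, and 40.2 to 57 (median 44.5) and 35 to 51.7 (median 43.2) at long term. Pcna, the clamp that holds DNA polymerase on its template, had 29.4 to 46.5 (median 42.3) in ieCre and 35 to 42.7 (median 40.1) in ieET-1 mice at short term, and 42.6 to 57.4 (median 49.95) and 38.7 to 63.9 (median 48) at long term. All 4 groups overlapped for both genes, and the highest Mcm6 values were in the long-term mouse 9487 and the short-term mouse 10. Pcna rose from 39.8 ± 4.96 (SD, n = 12) at short term to 49.4 ± 7.86 at long term (0.30, SE 0.09, adjusted p = 0.0186). With values set relative to each library's total reads, Pcna no longer passed (adjusted p = 0.302), although its log2 difference was 0.24. Mcm2 (0.14, SE 0.08, adjusted p = 0.232), Mcm3 (0.11, SE 0.11, adjusted p = 0.547) and Mcm5 (0.02, SE 0.15, adjusted p = 0.957) did not pass. Pcna has processed pseudogenes in the mouse, of which Pcna-ps2 drew 43 reads in all against 14126 for Pcna.

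None of the 3 nucleotide enzymes passed. Tyms, which makes thymidylate, had 8.38 to 15.6 (median 10.04) in ieCre and 11 to 16.3 (median 13.1) in ieET-1 mice at short term, and 8.31 to 21 (median 10.7) and 7.96 to 15.5 (median 10.4) at long term. Tk1, which salvages thymidine, had 0.895 to 5.92 (median 2.20) in ieCre and 1.45 to 3.30 (median 2.08) in ieET-1 mice at short term, and 0.584 to 5.36 (median 1.13) and 0.529 to 3.64 (median 1.39) at long term. Its values in the long-term mice 9487 and 9489 were within the short-term range, and those of 4 long-term mice lay below the lowest short-term mouse. The log2 differences over both genotypes were -0.13 for Tyms, -0.36 for Tk1 and -0.19 for Rrm2, the subunit of ribonucleotide reductase made in S phase, with adjusted p-values from 0.297 to 0.547.

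Among cyclins, kinases and Foxm1, 5 of the 8 members tested fell. Ccna2, the cyclin of S phase and G2, had 3.01 to 20.3 (median 11.6) in ieCre and 7.63 to 11.6 (median 9.42) in ieET-1 mice at short term, and 2.51 to 17.2 (median 3.40) and 1.90 to 10.5 (median 2.97) at long term. Cdk1, the kinase that drives entry into mitosis, had 1.63 to 12.1 (median 6.35) in ieCre and 2.98 to 10.1 (median 4.70) in ieET-1 mice at short term, and 0.915 to 11.7 (median 2.21) and 1.06 to 7.96 (median 1.802) at long term. Pbk, a mitotic kinase, had 1.06 to 7.46 (median 4.06) in ieCre and 2.80 to 8.49 (median 4.14) in ieET-1 mice at short term, and 0.474 to 4.94 (median 1.00) and 0.211 to 3.03 (median 0.777) at long term. For Pbk 8 of the 12 long-term mice lay below the lowest short-term mouse, and mouse 257 was high within the short-term ieET-1 group. Pbk fell from 4.41 ± 2.23 (SD, n = 12) at short term to 1.35 ± 1.37 at long term, a ratio of 3.27 (-1.25, SE 0.25, adjusted p = 0.0014). Ccna2 fell from 10.6 ± 4.64 (SD, n = 12) at short term to 5.15 ± 4.60 at long term (-1.06, SE 0.28, adjusted p = 0.0112) and Cdk1 from 6.19 ± 3.51 (SD, n = 12) at short term to 3.16 ± 3.30 at long term (-0.91, SE 0.31, adjusted p = 0.044). The mitotic cyclin Ccnb2 (-0.72, SE 0.24, adjusted p = 0.0409) and Foxm1, the transcription factor of G2 and M genes (-0.41, SE 0.14, adjusted p = 0.0402), fell as well. Of the 24 fits without 1 mouse, 7 kept the call on Cdk1, 7 that on Ccnb2 and 9 that on Foxm1, while Pbk and Ccna2 kept theirs in all 24. Ccnb1 (-0.83, SE 0.30, adjusted p = 0.0583), the spindle pole kinase Aurka (-0.45, SE 0.16, adjusted p = 0.0588) and Melk (-0.44, SE 0.20, adjusted p = 0.138) did not pass. Plk1, a kinase needed at many steps of mitosis, was too low to test and went from 0.707 ± 0.419 (SD, n = 12) at short term to 0.475 ± 0.295 at long term. Exons of Ccna2 overlap those of Exosc9 on the opposite strand over 12.5% of their length, and it is not stated whether reads were counted by strand, so the level of Ccna2 is uncertain.

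Of the 7 genes of the kinetochore and its checkpoint, 3 fell, all of them centromere proteins. Cenpf, which binds kinetochores and microtubules, had 2.44 to 16.2 (median 11.7) in ieCre and 6.06 to 14.1 (median 7.63) in ieET-1 mice at short term, and 1.34 to 9.75 (median 2.31) and 1.27 to 6.97 (median 2.13) at long term. Cenpa, the histone variant that marks centromeres, had 5.21 to 11.8 (median 8.84) in ieCre and 6.59 to 8.16 (median 7.14) in ieET-1 mice at short term, and 4.09 to 10.4 (median 5.27) and 4.76 to 7.43 (median 5.98) at long term. Bub1b, a kinase-like protein of the spindle checkpoint, had 4.39 to 14.3 (median 8.10) in ieCre and 6.59 to 8.94 (median 7.83) in ieET-1 mice at short term, and 3.89 to 12.9 (median 5.51) and 3.07 to 9.24 (median 4.56) at long term. For Cenpf 7 of 12 long-term mice lay below the lowest short-term mouse, which was mouse 8754. Cenpf fell from 9.41 ± 4.40 (SD, n = 12) at short term to 3.22 ± 2.56 at long term, a ratio of 2.92 (-1.34, SE 0.27, adjusted p = 0.00143). Cenpa (-0.38, SE 0.11, adjusted p = 0.0237) and the kinetochore motor Cenpe (-0.85, SE 0.25, adjusted p = 0.0205) fell. Bub1b (-0.42, SE 0.17, adjusted p = 0.0949) and Bub1 (-0.68, SE 0.24, adjusted p = 0.0529), and the chromosome passenger proteins Aurkb (-0.40, SE 0.17, adjusted p = 0.111) and Birc5 (-0.48, SE 0.23, adjusted p = 0.158), did not pass.

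Of the 9 genes of spindle motors and microtubule binding, 8 fell. Ckap2, a spindle-associated protein, had 1.14 to 14 (median 5.97) in ieCre and 5.21 to 7.74 (median 5.69) in ieET-1 mice at short term, and 0.745 to 8.60 (median 1.62) and 0.615 to 4.47 (median 1.03) at long term. In ieET-1 mice its short-term and long-term values did not overlap, which held for 1 of the 39 members and for 1.33% of all genes tested in that direction. Prc1, which bundles microtubules at the spindle midzone, had 2.93 to 19.2 (median 11.8) in ieCre and 7.12 to 11.5 (median 8.61) in ieET-1 mice at short term, and 1.84 to 14.3 (median 2.78) and 2.11 to 7.12 (median 2.56) at long term. Kif23, the motor of the midzone complex centralspindlin, had 4.15 to 10.5 (median 6.80) in ieCre and 5.58 to 7.99 (median 6.93) in ieET-1 mice at short term, and 2.71 to 8.41 (median 3.70) and 2.67 to 5.99 (median 2.95) at long term. Hmmr, a spindle assembly factor that also binds hyaluronan, had 0.732 to 7.88 (median 5.49) in ieCre and 2.81 to 6.43 (median 4.21) in ieET-1 mice at short term, and 0.668 to 7.44 (median 1.02) and 0.634 to 4.32 (median 0.869) at long term. In each of these the long-term mouse 9487 was above the median of the short-term ieCre mice, and mouse 8754 was the lowest short-term mouse. Over both genotypes Ckap2 was 3.14 times as high at short as at long term (-1.36, SE 0.29, adjusted p = 0.00215), Hmmr 2.61 times (-1.12, SE 0.27, adjusted p = 0.00622) and Prc1 2.44 times (-1.22, SE 0.26, adjusted p = 0.00255). For Kif23 the ratio was 1.65 (-0.65, SE 0.16, adjusted p = 0.00654). Calls on all 4 held in each of the 24 fits without 1 mouse and under each of the 11 other settings tried. Tpx2, which nucleates spindle microtubules, had 4.39 to 19.8 (median 10.3) in ieCre and 7.93 to 10.5 (median 8.38) in ieET-1 mice at short term, and 2.94 to 16.6 (median 4.34) and 2.46 to 11.4 (median 4.59) at long term. Nusap1, which cross-links spindle microtubules, had 3.74 to 14.8 (median 8.65) in ieCre and 7.37 to 13.3 (median 9.63) in ieET-1 mice at short term, and 3.39 to 11.6 (median 5.06) and 3.53 to 9.70 (median 5.46) at long term. Tpx2 fell (-0.72, SE 0.25, adjusted p = 0.0461), a call kept in 6 of the 24 fits without 1 mouse and under 6 of the 11 other settings, and Nusap1 missed the threshold (-0.56, SE 0.20, adjusted p = 0.0503). The motors Kif11 (-0.86, SE 0.28, adjusted p = 0.0356) and Kif20a (-0.98, SE 0.29, adjusted p = 0.0216) and the Ckap2 relative Ckap2l (-0.92, SE 0.22, adjusted p = 0.00607) fell. The call on Kif11 was kept in 14 of the 24 fits without 1 mouse, and those on Kif20a and Ckap2l in all 24. Opposite-strand exons overlap 29.3% of the exon length of Kif20a (Cdc23) and 11.1% of that of Prc1 (Rccd1), so these 2 levels are uncertain.

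All 3 genes of cytokinesis fell. Anln, which ties actin and septins to the cleavage furrow, had 20.1 to 58.4 (median 32.9) in ieCre and 28.8 to 34 (median 31.2) in ieET-1 mice at short term, and 11.9 to 34.7 (median 18.8) and 19.2 to 33 (median 22.9) at long term. Racgap1, the partner of Kif23 in centralspindlin, had 3.66 to 12.1 (median 6.30) in ieCre and 3.79 to 6.92 (median 5.58) in ieET-1 mice at short term, and 2.57 to 6.71 (median 3.38) and 2.58 to 5.68 (median 3.34) at long term. Their groups overlapped between the times, with 5 of 12 long-term mice below the lowest short-term mouse for Anln and 8 of 12 for Racgap1. Anln fell from 33.7 ± 10.3 (SD, n = 12) at short term to 22.9 ± 6.93 at long term (-0.54, SE 0.16, adjusted p = 0.0221) and Racgap1 from 6.04 ± 2.35 (SD, n = 12) at short term to 3.78 ± 1.34 at long term (-0.54, SE 0.16, adjusted p = 0.0231). Ect2, which activates RhoA at the furrow, fell too (-0.68, SE 0.17, adjusted p = 0.00773).

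Of the 2 genes of the anaphase-promoting complex, which marks mitotic proteins for destruction, Ube2c fell and Cdc20 did not pass. Cdc20, its activator, had 2.44 to 7.20 (median 3.86) in ieCre and 1.57 to 2.98 (median 2.59) in ieET-1 mice at short term, and 1.88 to 3.84 (median 2.62) and 1.63 to 3.32 (median 2.40) at long term. Ube2c, its ubiquitin-conjugating enzyme, had 1.30 to 5.48 (median 3.14) in ieCre and 1.85 to 3.21 (median 2.11) in ieET-1 mice at short term, and 0.678 to 5.30 (median 1.14) and 0.817 to 2.42 (median 0.889) at long term. In Cdc20 the short-term ieCre mice reached higher than any other group, and the other 3 groups overlapped almost fully. Ube2c fell from 2.71 ± 1.25 (SD, n = 12) at short term to 1.48 ± 1.30 at long term (-0.63, SE 0.20, adjusted p = 0.0287), a call kept in 21 of the 24 fits without 1 mouse. Cdc20 had -0.26, SE 0.14, adjusted p = 0.211. Exons of Tnnc2 on the opposite strand overlap 22.8% of the exon length of Ube2c.

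Members with the homology region core in their promoter window made up most of those that fell: 16 of the 21 tested with it fell, with a median log2 difference of -0.68 over the 21, and 1 of the 12 tested without it (Cenpe), with a median of -0.27. Mcm2 has the core and did not fall. Of the 12 without it 7 are replication or nucleotide genes. Among the other roles 16 of 20 tested with the core fell (median -0.70) and 1 of 5 without it (median -0.56), and the 4 of these 5 that did not pass were Birc5, Ccnb1, Melk and Nusap1. The other 2 motifs gave differences as well. In the same roles 16 of 21 tested with a CCAAT box fell (median -0.83) and 1 of 4 without it (median -0.51). With the E2F core 4 of 5 fell (median -0.91) and without it 13 of 20 (median -0.64). Differences between members with and without a motif were not tested.

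Within ieET-1 mice alone 6 of 39 members fell between short and long term (15.4%) and none rose, against 3.39% of all genes that fell. They were Pbk (-1.51, SE 0.36, adjusted p = 0.0103), Ckap2 (-1.58, SE 0.41, adjusted p = 0.018), Cenpf (-1.41, SE 0.38, adjusted p = 0.0236), Prc1 (-1.32, SE 0.37, adjusted p = 0.0288), Kif23 (-0.74, SE 0.22, adjusted p = 0.0402) and Hmmr (-1.24, SE 0.39, adjusted p = 0.0469). The median over the 39 was -0.68. Single mice moved this count by more than 1.5 times: it was 2 without mouse 257 or mouse 8152, 3 without mouse 258, 8992, 8134 or 8136, and 14 without mouse 9489. Without the 4 libraries rich in Gm42418, of which 2 are long-term ieET-1 mice, no member passed. Over all genes tested 603 then passed in either direction, in place of 1260. Pbk and Ckap2 passed in each of the 12 fits without 1 ieET-1 mouse. Of the 6, Pbk and Hmmr reached a value of 1 in only 4 and 5 long-term libraries, so they entered the test through their short-term values. With no filter on low values 2 members fell.

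Within ieCre mice none of the 39 members passed by limma, against 3.3% of all genes in either direction. With the animal ID range as a term in the fit, 9 members fell, against 1.75% of all genes. At an unadjusted p under 0.05 there were 22 members, 21 of them lower, against 17.9% of all genes. EdgeR called 0 members and DESeq2 3 (Anln, Cenpf and Ect2), against 2.56% of all genes lower with DESeq2. The smallest p-values belonged to Ect2 (-0.80, SE 0.24, adjusted p = 0.0665), Cenpf (-1.27, SE 0.38, adjusted p = 0.0665), Cenpa (-0.50, SE 0.16, adjusted p = 0.0864), Anln (-0.69, SE 0.23, adjusted p = 0.0968) and Prc1 (-1.11, SE 0.37, adjusted p = 0.102). The median over the 39 was -0.61, close to that in ieET-1 mice. The count was 9 without mouse 9487, the high long-term mouse, 6 without mouse 8754, the low short-term mouse, and 1 without mouse 9955. The change with time was not shown to differ between the genotypes: by limma no member passed the test of the genotype by time interaction, none had an unadjusted p under 0.05 (5.03% of all genes did), and edgeR and DESeq2 called none. No gene at all passed that test by limma (0%). The smallest p-values were those of Mcm2 (0.29, SE 0.16, adjusted p = 0.752), Cdc20 (0.48, SE 0.28, adjusted p = 0.752), Tyms (-0.36, SE 0.27, adjusted p = 0.752), Mcm3 (0.26, SE 0.23, adjusted p = 0.758) and Cenpa (0.25, SE 0.23, adjusted p = 0.763).

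**Figure D4:**
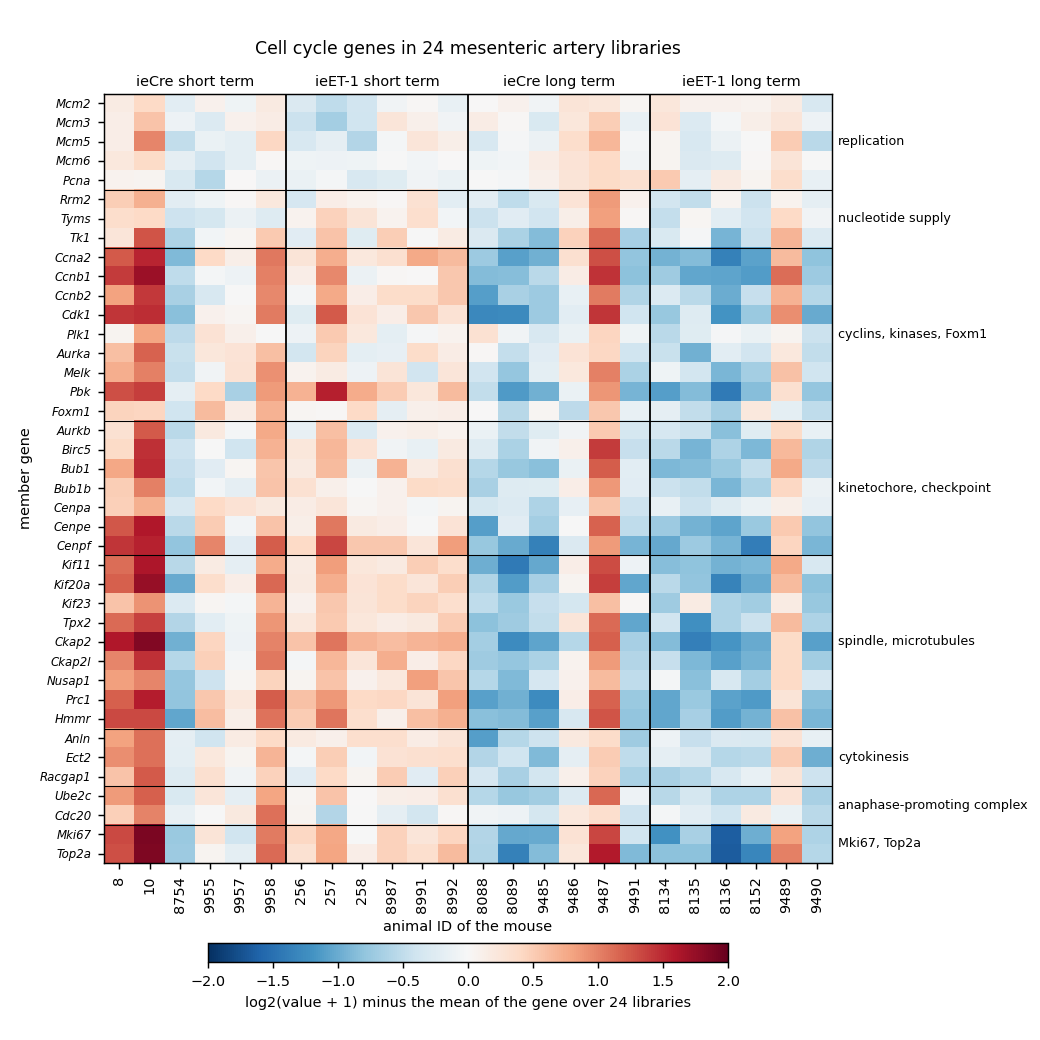
Each of the 40 members (rows, by role) in each of the 24 libraries (columns, by group), as log2(value + 1) minus the mean of that gene over all libraries; red is above and blue below that mean. Mouse 10 is highest for 31 members, and the long-term mice 9487 and 9489 are red where the rest of their groups are mostly blue.

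The mean of log2(value + 1) over the 32 members outside replication and nucleotide supply was 1.75 to 3.61 (median 2.79) in short-term ieCre mice, 2.44 to 2.93 (median 2.53) in short-term ieET-1 mice, 1.54 to 3.24 (median 1.73) in long-term ieCre mice and 1.45 to 2.76 (median 1.67) in long-term ieET-1 mice. The short-term ieET-1 mice lay close together and above 10 of the 12 long-term mice, whereas the ieCre mice spread widely at both times. At short term the SD of this mean was 0.69 in ieCre and 0.19 in ieET-1 mice, and the difference in spread was not tested. Over the 8 replication and nucleotide members the same mean was 3.25 to 4.16 (median 3.52) at short term and 3.34 to 4.18 (median 3.42) at long term. Mouse 10 was the highest of the 24 for 31 of the 40 members and mouse 9487 for 4, while mouse 8136, one of the libraries rich in Gm42418, was the lowest for 12. On the score over all members, the long-term mice 9487 and 9489 ranked second and sixth from the top, and the short-term mouse 8754 ranked seventeenth.

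Comparison of ieET-1 with ieCre mice asks what endothelin-1 from the endothelium does to these genes. At short term no member passed by limma, against 0.0825% of all genes (12 genes). At an unadjusted p under 0.05 there were 2, both lower in ieET-1 mice (9.91% of all genes were under it), and edgeR and DESeq2 called none. These 2 were Cdc20 (-0.61, SE 0.20, adjusted p = 0.451) and Mcm2 (-0.32, SE 0.11, adjusted p = 0.461). Next came Mcm3 (-0.30, SE 0.16, adjusted p = 0.533), Aurka (-0.37, SE 0.23, adjusted p = 0.557) and Tyms (0.26, SE 0.19, adjusted p = 0.604). For Mki67 the log2 difference was -0.17 with an SE of 0.43. All 8 markers of the adrenal cortex, a tissue that is no part of the artery, were lower in ieET-1 mice at short term, and 6 of them passed by limma. Their part was not tested. At long term none passed by limma, against 0.00688% of all genes (1 gene), none had an unadjusted p under 0.05 (2.99% did), and edgeR and DESeq2 called none. There the smallest p-values were those of Birc5 (-0.50, SE 0.33, adjusted p = 0.999), Aurka (-0.32, SE 0.23, adjusted p = 0.999), Rrm2 (-0.25, SE 0.20, adjusted p = 0.999), Bub1b (-0.30, SE 0.25, adjusted p = 0.999) and Mcm6 (-0.14, SE 0.12, adjusted p = 0.999). No member separated the genotypes without overlap at either time, against 0.399% of all genes lower and 0.364% higher at short term and 0.0413% and 0.0619% at long term. Median differences over the 39 members were -0.13 at short term and -0.18 at long term. Leaving out single mice moved the first from -0.33 to 0.05 and the second from -0.36 to 0.01, so both crossed 0. Averaged over both times no member passed by limma either (0.0206% of all genes did), 3 had an unadjusted p under 0.05 (6.64% of all genes did), and edgeR and DESeq2 called none.

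The animal IDs were put into ranges here, 8 to 258 and 8754 to 9958 at short term and 8088 to 8152 and 9485 to 9491 at long term. The labels do not say what the IDs mean, and the range 8754 to 9958 encloses the long-term range 9485 to 9491. A genotype comparison can be made within each range. Only in 9485 to 9491 do the genotypes lie in 1 run of IDs. Elsewhere they form separate blocks: ieCre 8 and 10 against ieET-1 256 to 258, 8754 and 9955 to 9958 against 8987 to 8992, and 8088 and 8089 against 8134 to 8152. It is thus not known whether the mice of a range belong together. Among short-term mice with IDs of 8 to 258, 39 of 39 members were lower in the 3 ieET-1 than in the 2 ieCre mice, with a median log2 difference of -0.82 and mean Mki67 values of 34.7 and 81.1. Among those with IDs of 8754 to 9958, 7 of 39 were lower in the 3 ieET-1 than in the 4 ieCre mice, with a median of 0.21 and mean Mki67 values of 33.6 and 29.6. The direction thus turned between the ranges. At long term the medians were -0.01 (IDs of 8088 to 8152, 2 ieCre and 4 ieET-1 mice) and -0.002 (IDs of 9485 to 9491, 4 ieCre and 2 ieET-1 mice), with 20 of 39 members lower in each. No range holds mice of both times, so time and ID range cannot be told apart. With the ID range as a term in the fit, no member passed for genotype at either time, and 27 members fell between short and long term over both genotypes, against 9.58% of all genes. That term weights the 2 ranges of a time evenly in each group, so it changes the estimated differences as well as the spread. It cannot separate the difference between the times from a difference between their ranges.

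**Figure D5:**
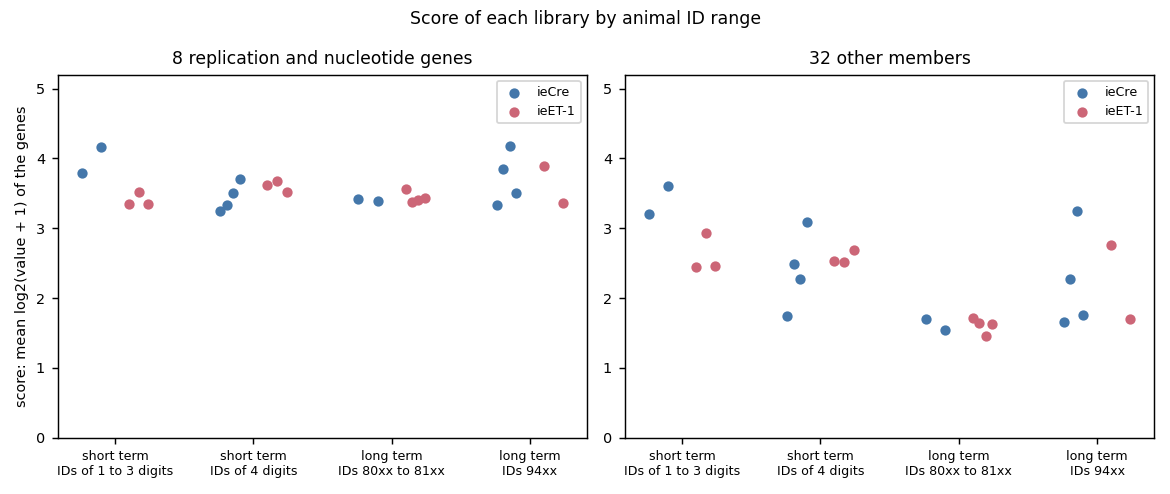
Mean of log2(value + 1) in each library for the 8 replication and nucleotide members (left) and the 32 other members (right), by animal ID range and genotype, with 1 point per mouse. On the right the 2 ieCre mice with IDs of 8 to 258 are the highest short-term mice, at 3.61 and 3.21, and the long-term mouse 9487 stands with them at 3.24.

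Other genes of the cell cycle, from lists chosen with earlier results of these data known, are given here beside the members. Of 51 further mitotic genes tested, 17 fell between short and long term over both genotypes and 1 rose, against 6.91% and 9.81% of all genes. Those that fell included Cdca8 (-0.70, SE 0.14, adjusted p = 0.00131), a chromosome passenger protein, Iqgap3 (-0.91, SE 0.18, adjusted p = 0.00138), Aspm (-1.06, SE 0.26, adjusted p = 0.00624), which works at spindle poles, and the outer kinetochore genes Spc25 (-0.82, SE 0.21, adjusted p = 0.00839), Knl1 (-0.92, SE 0.24, adjusted p = 0.00998) and Nuf2 (-0.88, SE 0.24, adjusted p = 0.0122). Iqgap3 had normalized values of 4.05 ± 2.21 in ieCre and 2.53 ± 0.774 in ieET-1 mice at short term (mean and SD, n = 6) and 1.24 ± 0.746 and 1.21 ± 0.623 at long term. Within ieCre mice Kif18b, Iqgap3 and Cdca8 fell, and within ieET-1 mice Knl1 and Spc25. The gene that rose was H2afx (0.46, SE 0.14, adjusted p = 0.0221), which encodes the histone variant phosphorylated at DNA breaks. Of 25 further replication genes tested none fell and 2 rose, Pold1 (0.43, SE 0.12, adjusted p = 0.0161), the catalytic subunit of DNA polymerase delta, and the flap nuclease Fen1 (0.30, SE 0.10, adjusted p = 0.0483). Chaf1a, a subunit of the histone chaperone CAF-1, came next (-0.22, SE 0.09, adjusted p = 0.0842) and did not pass.

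Among genes upstream of the cycle and p53 targets the counts are read against the 16.7% of all genes that passed over both genotypes in either direction. Of 12 G1 cyclins and kinases Ccne2 fell (-0.55, SE 0.16, adjusted p = 0.022), and Ccnh (-0.20, SE 0.07, adjusted p = 0.057) and Cdk7 (-0.14, SE 0.06, adjusted p = 0.13), which form the CDK-activating kinase, came next without passing. Within ieET-1 mice alone Ccnh fell (-0.34, SE 0.10, adjusted p = 0.0413). Among 16 tested genes of the RB, E2F and DREAM families E2f3 (-0.43, SE 0.08, adjusted p = 0.000634) and Rb1 (-0.19, SE 0.06, adjusted p = 0.022) fell. Both also fell within ieET-1 mice alone, E2f3 with a log2 difference of -0.47 (SE 0.11, adjusted p = 0.0123) and Rb1 with -0.30 (SE 0.08, adjusted p = 0.0184). E2f7, a repressor of E2F targets, came next (-0.29, SE 0.12, adjusted p = 0.103) and did not pass. E2f3 had normalized values of 11.1 ± 0.668 in ieCre and 11.8 ± 1.49 in ieET-1 mice at short term (mean and SD, n = 6) and 8.18 ± 0.418 and 8.35 ± 1.82 at long term. Of 6 tested CDK inhibitors Cdkn2b, an inhibitor of Cdk4 and Cdk6, rose (0.34, SE 0.10, adjusted p = 0.0172), and Cdkn2d (0.29, SE 0.10, adjusted p = 0.0501) and Cdkn2c (0.16, SE 0.11, adjusted p = 0.311) did not pass. Cdkn2b had normalized values of 2.33 ± 0.305 in ieCre and 2.24 ± 0.798 in ieET-1 mice at short term (mean and SD, n = 6) and 2.65 ± 0.649 and 3.71 ± 0.486 at long term, and it also rose within ieET-1 mice alone (0.57, SE 0.14, adjusted p = 0.0127). Of 16 p53 targets and growth arrest genes Phlda3 (0.38, SE 0.07, adjusted p = 0.000875), Bbc3 (0.36, SE 0.09, adjusted p = 0.00752) and Gadd45b (0.37, SE 0.11, adjusted p = 0.0203) rose, and Eda2r (-0.46, SE 0.10, adjusted p = 0.00326) and Zmat3 (-0.35, SE 0.12, adjusted p = 0.0408) fell, of which Bbc3 rose and Eda2r fell within ieET-1 mice alone. For genotype no gene of these lists passed at either time. The smallest p-value of all was that of Kif18b at short term (-0.66, SE 0.16, adjusted p = 0.158).

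Markers of other cells moved with the same comparison. Of the 8 fibroblast markers 4 fell between short and long term (Col1a1, Col1a2, Lum and Dpt) and 1 rose (Dpep1). Their summed level was 10545.9 to 13652.5 at short term and 6222.9 to 12015.9 at long term. The long-term mice 9487 and 9489, high in mitotic genes, had the 2 highest fibroblast sums of their time, at 12015.9 and 10879.6. Of the 5 T cell markers tested 3 rose, with sums of 4.75 to 10.7 at short term and 7.40 to 22 at long term, and of the 3 B cell markers tested 1 rose. Of 8 macrophage markers 2 rose, with sums of 632 to 1113.7 and 689 to 1474.1, highest in mouse 9487. Of 8 adipocyte markers 5 rose, among them Lep, and 1 marker each of mesothelium (Krt18) and of red cell precursors (Epor) rose, while 1 Schwann cell marker (Pmp22) fell. All 8 pancreatic acinar markers were higher at long term without passing, with a median log2 difference of 1.73 and 5 at an unadjusted p under 0.05. Their sums were 90.8 to 25577.8 (median 3875.3) at short term and 382 to 56105.3 (median 19105.5) at long term. The highest short-term sum was in mouse 8754, low in mitotic genes, and the long-term mice 9487 and 9489 had 8763.9 and 4485.9, below the long-term median. Other mice went the other way. The long-term mice 9491 and 8152 had only 382 and 1298.5 but ranked 15 and 22 from the top in members outside replication and nucleotide supply. The short-term mice 10 and 257 had 10775.5 and 17179.6 but ranked 1 and 5. None of the 8 markers each of smooth muscle and adrenal cortex cells passed, and of the 8 endothelial markers Vwf fell. Of the 8 markers of intestinal epithelium, a tissue with many dividing cells, 2 could be tested and neither passed, and Olfm4 and Fabp2 were without a read in 14 and 20 libraries. Mice 10, 9487 and 9489 had intestinal sums of 1.90, 2.87 and 3.33. The part of these cell types in the change of the mitotic genes was not tested.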

How the data were processed

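Mesenteric arteries of 24 mice were profiled as stranded total RNA libraries depleted of ribosomal RNA, 1 library a mouse, per the labels. Per the submitters' processing notes the tools were STAR 2.3.1, edgeR 3.6.8, R 3.2.3, bcl2fastq 1.8.4 and FastQC, with no role stated. Genome build, read counter and strand setting were not given in the sources used here. Deposited values are a normalized signal per gene: the authors' read count divided by an effective library size. Over all libraries 100% of the 482036 positive values were whole multiples, within 0.001, of the value of 1 read, so whole reads were recovered, and totals of 9635250 to 16181605 reads set the depth. Of 29020 genes 28403 (97.9%) had a symbol in GENCODE vM21, which is of build GRCm38.

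Genes that reached a value of 1 in 6 or more libraries (14544) were tested with limma 3.58.1 (limma-trend) in R 4.3.3 on log2(value + 1), in 1 model of the 4 group means with 20 residual degrees of freedom. P-values were adjusted over all 14544 genes with the Benjamini-Hochberg method at 0.05. The fit was tested on simulated data. EdgeR 4.0.16 (quasi-likelihood) and DESeq2 1.42.0 on the recovered reads, pseudocounts of 0.5 and 0.1, no filter, a filter on a mean value of 0.2, quantile normalization, values relative to total reads, the compared groups alone, a term for the animal ID range and leaving out each mouse were the alternatives. The comparisons averaged over genotypes or times, and the fits without the 4 libraries with over 10% of reads on Gm42418, were added after results had been seen.

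The members and lists were chosen with earlier results of these data known. Values by group are given for Mki67, Top2a, the 2 members of each role with the most reads and those that passed within 1 genotype. The 5 members of smallest p are named in each comparison, and the 3 genes with the smallest p in each other list over both genotypes. Promoter windows are from RefSeq (GRCm38.p6), the first window of each gene, and 34 of 40 members matched. Libraries were compared in 276 pairs, and in the closest pair the chi-square statistic per degree of freedom was 10.9, so no library was counted as a repeat of another.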

Additional observations from a re-analysis of the deposited data

Results flagged for a closer look

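Values of the 22 members described in full, and of the means over members, were examined in 100 groups of 6 mice, and in 26 groups 1 mouse stood far from the other 5 by Dixon's test. Chance alone gives such a mouse in about 1 of 20 groups if values are normally distributed, which was not tested, and values of genes were taken without a log. The 26 are not independent, since 24 of them concern mouse 9487 or mouse 9489 and the members move together. In every case the mouse was the highest of its group.

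Mouse 9487, a long-term ieCre mouse, stood above the other 5 with a normalized value of 65.7 for Mki67, where the others reached at most 31.3. It had 67.3 for Top2a, 21.03 for Tyms and 11.7 for Cdk1. Its centromere and spindle values were 10.4 for Cenpa, 9.75 for Cenpf, 8.60 for Ckap2, 14.3 for Prc1 and 7.44 for Hmmr. Its values of Pbk and Ube2c were 4.94 and 5.30. This library was not rich in Gm42418 (0.105% of reads), and its fibroblast and macrophage sums were the highest of the long-term mice.

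Mouse 9489, a long-term ieET-1 mouse, had 45.5 for Mki67, where the other 5 reached at most 16.3. It had 44.9 for Top2a, 10.5 for Ccna2, 7.96 for Cdk1 and 11.4 for Tpx2. Its values were 6.97 for Cenpf, 4.47 for Ckap2, 7.12 for Prc1 and 4.32 for Hmmr. Its values of Pbk and Ube2c were 3.03 and 2.42. Its mean of log2(value + 1) was 2.98 over all members and 2.76 over those outside replication and nucleotide supply. In this library 24399 genes had reads, against 18765 to 20744 in the others, and the part of that in its values was not tested.

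Mouse 257, a short-term ieET-1 mouse, stood out for Pbk (8.49, others at most 4.42) and Ckap2 (7.74, others at most 5.95). Among the 3 mice this one lies in the short-term group, and without it 2 in place of 6 members passed within ieET-1 mice.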

How the results depend on the processing

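No paired analysis was possible because each mouse has its own animal ID and the groups share 0 replicate numbers. No member called by limma changed direction, in the comparison where it was called, under any other setting or without any single mouse. Medians over members did turn where no member was called. Leaving out single mice moved the genotype median from -0.33 to 0.05 at short term and from -0.36 to 0.01 at long term. Within ieCre mice, where limma called 0 members, DESeq2 called 3 and the fit with the animal ID range 9, and leaving out single mice gave 0 to 9. Mice 8754 (6), 9487 (9) and 9955 (1) moved it from 0. Within ieET-1 mice, where 6 fell, 2 fell with no filter on low values and 0 without the libraries rich in Gm42418. Leaving out single mice gave 2 to 14, and mice 257 (2), 258 (3), 8992 (3), 8134 (3), 8136 (3), 8152 (2) and 9489 (14) moved the count by over 1.5 times. Over both genotypes 23 members passed, 12 with no filter, 10 without the libraries rich in Gm42418, 27 with quantile normalization, 28 with the ID range, and 15 to 30 without single mice, lowest without mouse 10 or 9958 (15 each). With no filter 29020 genes were tested in place of 14544. The cause of the other shifts was not tested. No setting gave a call for genotype or for the interaction. Setting values relative to total reads moved the median of all genes by -0.14 (genotype, long term), -0.16 (time, ieET-1) and -0.20 (interaction). The median interaction over members, -0.06, was 0.20 with the ID range and 0.10 without the Gm42418 libraries. Low reads limit Plk1, Aurkb and Foxm1, with 186, 418 and 432 reads over all libraries.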
